A study of Mus musculus with 3 samples.

Results

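This report concerns 8 genes of cholesterol synthesis and its control by the sterol-sensing transcription factor SREBP2, chosen by name from the platform's gene symbols: Hmgcs1, Idi1, Fdft1, Sqle, Lss, Cyp51, Insig1 and Srebf2. All 8 were measured, out of 19938 genes with a probe set of their own. Whole kidney of female CBL/6 mice, 8 to 10 weeks old, was read on Affymetrix Mouse Gene 1.0 ST arrays, which sum up each transcript through probes spread over its exons. The control array came from non-treated mice. The NTS array came from mice that received a single injection of sheep nephrotoxic serum (NTS), an antiserum against the glomerulus that sets off an immune nephritis; the dose was 13.5 ug per g body weight. The NTS/PGE2 array came from mice that received the same serum and, each day from day 2, prostaglandin E2 (PGE2), a lipid mediator, at 5 ug per g. Treated mice were killed on day 7. There was 1 array per group, and the labels do not say whether an array's RNA came from 1 animal or several. No array of PGE2 without serum, or of a vehicle, was analysed here. No difference therefore had a replicate check and no test was run; precision is limited by there being 3 arrays.

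Cells make cholesterol from acetyl-CoA through mevalonate, isoprenoid units and squalene, which is closed into lanosterol and trimmed to cholesterol. When sterols in the endoplasmic reticulum are low, the escort protein SCAP carries SREBP2 to the Golgi, where it is cut, and the released part enters the nucleus and switches on nearly every gene of the pathway. When sterols are plentiful, INSIG proteins hold SCAP and SREBP2 back, and Insig1 is itself a target of SREBP. In the kidney, tubule cells both make cholesterol and take it up.

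The arrays' values are deposited log2 values after RMA, so a difference of 1 is 2-fold. A gene entered a comparison when its brighter array read at or above that array's median over all probe sets, which was 7.11 for control, 7.11 for NTS and 7.14 for NTS/PGE2. It was counted as different at a difference of at least 1, which is a rule of size. All 8 genes passed this filter in all 3 comparisons. The tissue label was set against 10 defining genes of the kidney tubule, all 10 of which passed, with Umod, the tubule's uromodulin gene, at 13.70, 13.64 and 13.74 on the control, NTS and NTS/PGE2 arrays. Of the adrenal cortex, a steroid-making tissue next to the kidney, none of 8 measured marker genes passed in any comparison. Most fat markers were bright on the control array. The fat list had a median level of 9.25 there, 7.08 with NTS and 6.94 with NTS/PGE2, and the brown fat gene Ucp1 read 11.84, 5.72 and 5.91. Lep, also on the list, read only 5.65 in control. Plin4 was higher with NTS, at 9.27, than in control, at 8.31. Where the level of fat markers bears on a gene below, its values are given beside it.

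The promoters of 4 of the genes are printed first, as examples of 3 of the patterns described below. Cyp51 and Hmgcs1 were low on the NTS array alone, Insig1 was low on the NTS/PGE2 array alone, and Srebf2 differed least among the 8. Idi1 and Fdft1, lowest on the NTS array and still below control on the NTS/PGE2 array, are not printed. Each sequence is the 250 bases before the annotated start of transcription, from RefSeq on GRCm38.p6, written 5′ to 3′ on the gene's own strand. They lie at chr5:4104698-4104947 on the minus strand for Cyp51, and on the plus strand at chr13:119690101-119690350 for Hmgcs1, chr5:28071162-28071411 for Insig1 and chr15:82147019-82147268 for Srebf2. Capitals mark matches to the SREBP motifs searched. Those in Cyp51 and Srebf2 match only a motif chosen after the letters were seen.
Cyp51: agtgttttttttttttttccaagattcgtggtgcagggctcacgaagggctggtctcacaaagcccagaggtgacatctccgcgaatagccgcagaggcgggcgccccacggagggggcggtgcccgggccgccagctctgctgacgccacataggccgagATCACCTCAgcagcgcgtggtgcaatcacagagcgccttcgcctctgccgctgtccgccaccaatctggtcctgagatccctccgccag
Hmgcs1: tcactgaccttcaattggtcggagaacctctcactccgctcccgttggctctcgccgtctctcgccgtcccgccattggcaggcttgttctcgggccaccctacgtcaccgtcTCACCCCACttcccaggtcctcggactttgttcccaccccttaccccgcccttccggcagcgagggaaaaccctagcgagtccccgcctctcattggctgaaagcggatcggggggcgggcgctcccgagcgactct
Insig1: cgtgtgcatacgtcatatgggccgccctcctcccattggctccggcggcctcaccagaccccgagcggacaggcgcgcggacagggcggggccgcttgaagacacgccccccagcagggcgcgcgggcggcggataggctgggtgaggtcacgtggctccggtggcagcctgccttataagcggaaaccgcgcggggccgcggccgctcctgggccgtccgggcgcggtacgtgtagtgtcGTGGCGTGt
Srebf2: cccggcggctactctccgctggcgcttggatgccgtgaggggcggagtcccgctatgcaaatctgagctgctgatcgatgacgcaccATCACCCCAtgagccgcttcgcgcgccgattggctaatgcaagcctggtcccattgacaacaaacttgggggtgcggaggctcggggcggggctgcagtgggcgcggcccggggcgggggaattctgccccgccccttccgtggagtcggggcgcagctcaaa

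Promoters were matched in the reference table for 6 of the 8 genes, the 4 above with Idi1 and Lss; Sqle and Fdft1 were not matched. Neither Idi1 nor Lss held a match to any of the SREBP motifs. Motifs were searched on both strands of the 250 bases, and their shares are given beside those of all 32851 promoter windows of that length in the table. The sterol element TCACNCCAC was found in Hmgcs1 alone among the 6, from 137 to 129 bases before the start, and in 1.05% of all windows. Its shorter core CACNCCAC, which every TCACNCCAC also contains, was found in Hmgcs1 and Insig1 and in 5.29% of all windows. The Insig1 match reads GTGGCGTG on the gene's strand and lies 9 to 2 bases before the start. A related motif, ATCACCNCA, was chosen after the letters were seen. It was found in Cyp51, as ATCACCTCA from 89 to 81 bases before the start, and in Srebf2, as ATCACCCCA from 163 to 155 bases before it, and in 0.645% of all windows. The CCAAT box, bound by NF-Y, a usual partner of SREBP, was found in all 6 promoters and in 33.8% of all windows. The GC box GGGCGG, bound by Sp1, was also found in all 6, against 32.7%. The 6 promoters had between 51.2% and 73.6% G and C, and the median of all windows was 52.4%. A match is a run of letters and not a site shown to be bound, and the promoters of genes that differed and of those that did not both held the CCAAT and GC boxes.

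**Figure D1:**
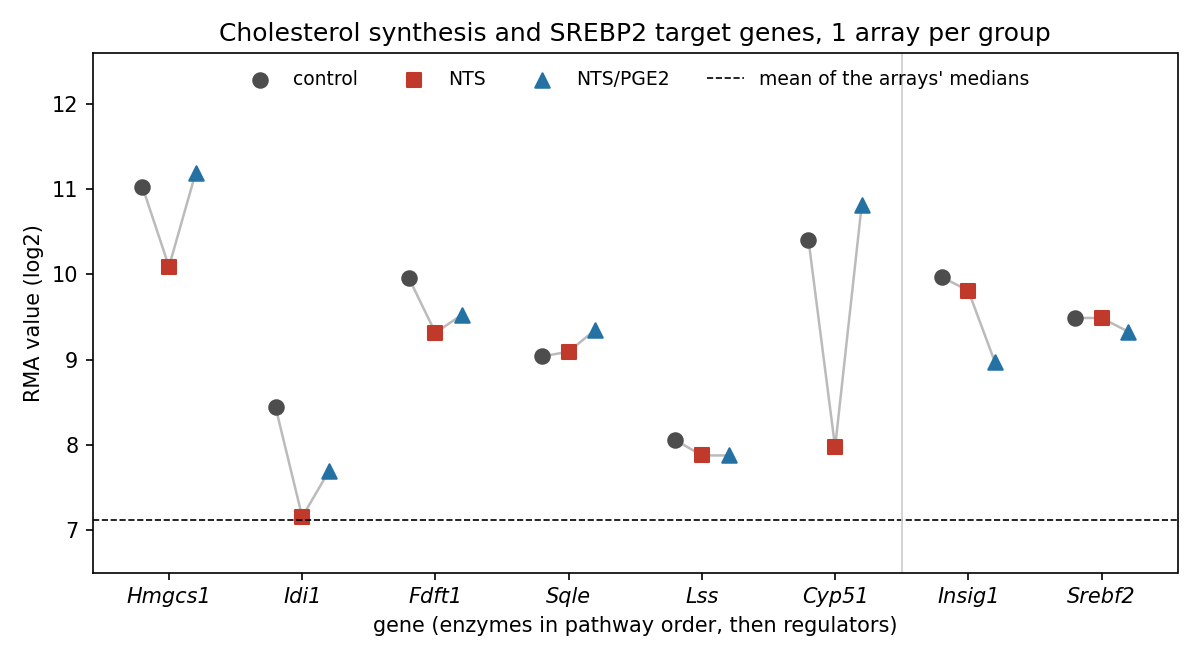
Log2 RMA value of each gene (y axis) on the control (circle), NTS (square) and NTS/PGE2 (triangle) array, 1 array per group with no error bars; grey lines join the 3 values of a gene and the dashed line is the mean of the arrays' medians. Cyp51 drops from 10.41 to 7.97 on the NTS array and reads 10.82 on the NTS/PGE2 array, while Insig1 is lowest on the NTS/PGE2 array; heights of different genes come from different probes and are not comparable.

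The first comparison, NTS against control, asked how the nephritic kidney differed at day 7. Cyp51 and Idi1 were lower by 2-fold or more in the NTS kidney, Hmgcs1 and Fdft1 were lower by smaller amounts, and Sqle, Lss, Insig1 and Srebf2 lay close to control. Of the 8 genes, 6 were lower, 1 was higher and 1 was exactly equal. The count of 2 at least 2-fold lower is set against 5.42% of the 11778 genes that entered the comparison, and the count of 0 at least 2-fold higher against 2.7%. Their median difference was -0.41, against a median of 0 over all 19938 genes.

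Cyp51 encodes lanosterol demethylase, the first step after lanosterol is formed. It read 10.41 in control, 7.97 in NTS and 10.82 in NTS/PGE2 kidney. The NTS array stands alone as low, 5.40-fold below control, a difference of -2.43 that ranked 68 from the lowest among the 11778 genes. Cyp51 had a single probe set, 10527920, so no second probe set speaks to this value.

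Idi1 encodes isopentenyl diphosphate isomerase, which makes the reactive isoprenoid unit. It read 8.44, 7.15 and 7.69 on the control, NTS and NTS/PGE2 arrays. Control was thus highest and NTS lowest, near the NTS array's median of 7.11. The difference of NTS from control was -1.29, or 2.44-fold lower. Both of its probe sets gave this order, with -1.39 for 10403413 and -1.18 for 10482762.

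Hmgcs1 encodes the HMG-CoA synthase of the cytosol, at the entry to the pathway. It read 11.03 in control, 10.09 in NTS and 11.19 in NTS/PGE2 kidney. Like Cyp51 it was low on the NTS array alone, 1.92-fold below control, just under the 2-fold rule. Fdft1 encodes squalene synthase, which commits isoprenoids to sterols. It read 9.96, 9.31 and 9.53, again lowest on the NTS array, with a difference from control of -0.64. Its probe sets gave -0.74 and -0.55.

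The other 4 genes showed little between these arrays. Sqle, squalene epoxidase, an oxygen-using and rate-controlling step, read 9.04 in control and 9.09 in NTS kidney. Lss, lanosterol synthase, which closes the ring system, read 8.06 and 7.88. Insig1, the sterol-dependent anchor of SCAP, read 9.97 and 9.81. Srebf2, the gene of SREBP2 itself, read 9.49 on both. The differences of these 4 genes were smaller in size than 0.19, the SD between probe sets of one gene (of a single set's difference), which was taken from 465 genes with 2 bright sets and leaves out the spread between animals. Exactly equal values were common, in 37.0% of all genes for these arrays, because RMA's median polish often returns the same value, so equality in Srebf2 does not show that its transcript was unchanged. A probe set shared by Srebf2 and 3 other genes, left out of the gene values, read 9.06 and 9.02.

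The tubule list was lower in NTS kidney as well. The median difference of its 10 genes was -1.37, and 8 were lower by 2-fold or more, led by Slc5a2, a glucose transporter of the proximal tubule, at -1.75, Aqp2, a water channel of the collecting duct, at -1.74, and Aqp1, a water channel of the proximal tubule, at -1.46. In whole tissue, fewer cells of a type and less RNA per cell cannot be told apart. Genes of injured tubules were higher, with a median of 1.99 over 9 genes. Macrophage genes went both ways, with 3 of 12 at least 2-fold higher, led by Cd68 at 2.23, 3 at least 2-fold lower, led by Ly86 at -1.35, and a median of -0.11. Of 9 liver genes 5 passed the filter, and the median was -0.17; albumin (Alb) was the one at least 2-fold different, at 9.86 in control, 7.57 in NTS and 10.51 in NTS/PGE2 kidney. The part of the tubule, of fat or of these other cell types in the differences of Cyp51, Idi1, Hmgcs1 and Fdft1 was not tested. Cyp51 lay further below control than every gene of the tubule list, Idi1 less far than 6 of its 10 genes, Hmgcs1 less far than 8 and Fdft1 less far than 9.

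In the second comparison, NTS/PGE2 was set against NTS to ask how the kidney given PGE2 after the serum differed from that given serum alone. Cyp51 and Hmgcs1 were higher by 2-fold or more with PGE2, Idi1, Sqle and Fdft1 were higher by less, Lss was equal, and Insig1 and Srebf2 were lower, Srebf2 by a difference of -0.16. The count of 2 at least 2-fold higher is set against 4.15% of 11699 genes, and that of 0 at least 2-fold lower against 3.28%. The median difference over the 8 genes was 0.24, against 0 over all genes. Comparisons that share the NTS array are not independent, so a gene read low on that array tends to differ in both.

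Cyp51 was 7.20-fold higher on the NTS/PGE2 array, a difference of 2.85 that ranked 28 from the highest. Hmgcs1 was 2.14-fold higher, a difference of 1.10. Both thus read slightly above control on the NTS/PGE2 array, Cyp51 by 0.42 and Hmgcs1 by 0.16. Idi1 differed by 0.53 and Fdft1 by 0.21 from the NTS array, and both stayed on the low side of control: 58.4% of the NTS difference of Idi1 and 66.8% of that of Fdft1 was left. Sqle was higher by 0.26 and was the one member whose NTS/PGE2 value exceeded both others without a low NTS value. Fat markers went both ways between these 2 arrays, with a median difference of 0.03; of the 5 that passed the filter, 2 were at least 2-fold higher, led by Lpl at 1.72, and 2 at least 2-fold lower, Plin4 at -1.92 and Cidec at -1.31. By contrast, the median of the tubule list was 1.41 and 8 of its 10 genes were higher by 2-fold or more. The injured tubule list was lower here, with a median of -2.22. Of 9 liver genes, 2 were at least 2-fold higher, Alb at 2.94 and Ahsg at 1.28, 0 were at least 2-fold lower, and the median was 0.17. The part of these cell types in the higher values of Cyp51 and Hmgcs1 was not tested.

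Insig1 went the other way. It read 9.97 in control, 9.81 in NTS and 8.97 in NTS/PGE2 kidney, so the NTS/PGE2 array alone stood low. The difference from the NTS array was -0.84, or 1.79-fold lower. At 1.5-fold, an alternative rule, Insig1 was the only one of the 8 genes lower in this comparison, as were 8.93% of all genes compared. It has 1 probe set, 10520362.

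In the last comparison, NTS/PGE2 was set against control to ask what set the PGE2-treated nephritic kidney apart from the untreated kidney. Of the 8 genes, 1 was at least 2-fold different, Insig1, at 2.00-fold lower. This is set against 0.659% of 11534 genes that were at least 2-fold lower, and the count of 0 higher against 0.0607%. Its difference of -1.002 lies at the threshold itself, ranking 76 from the lowest of 76 such genes, and with each array centred on its median over all genes the count was 0. Idi1 came next at -0.75 and Fdft1 at -0.43, followed by Lss at -0.18 and Srebf2 at -0.16. Cyp51 was higher by 0.42, Sqle by 0.31 and Hmgcs1 by 0.16. The median over the 8 was -0.17. The SD between probe sets was 0.12 here, which every one of the 8 differences exceeded, although it leaves out the spread between animals.

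Fat markers lay far below control in this comparison: the median was -1.98, and 8 of 11 were lower by 2-fold or more. For Insig1, which fat cells also express, the part of fat in the difference from control was not tested. The fat list's median level was 7.08 with NTS and 6.94 with NTS/PGE2. Ucp1 and Adipoq did not pass the filter between these groups, reading 5.72 and 4.70 with NTS and 5.91 and 4.88 with NTS/PGE2. Of the 11 genes 5 passed, and these went both ways. Plin4 and Cidec differed by -1.92 and -1.31, Lpl and Fabp4 by 1.72 and 1.04. Insig1 differed by -0.84 from its NTS value of 9.81, and the part of fat in this was not tested either.

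**Figure D2:**
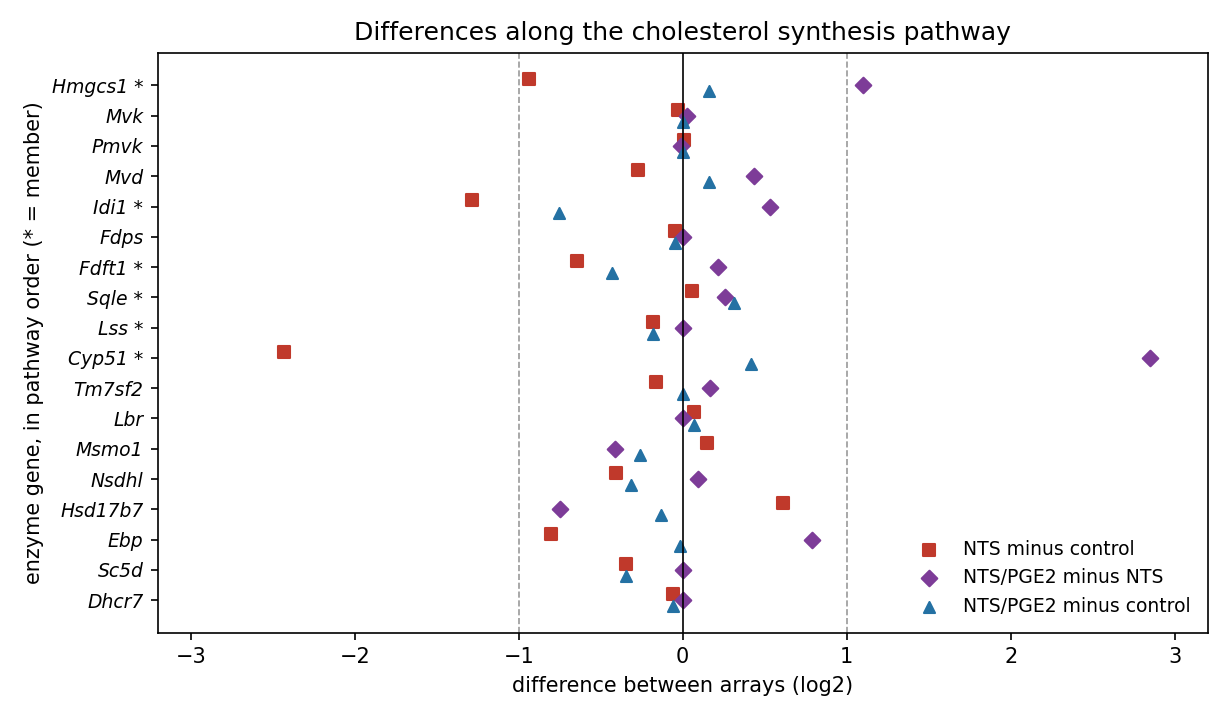
Log2 difference between arrays (x axis) for each measured enzyme gene of the pathway, in the order in which the enzymes act (y axis). An asterisk marks the enzymes among the 8 genes described, and Insig1 and Srebf2 are not shown. Symbols are NTS minus control (squares), NTS/PGE2 minus NTS (diamonds) and NTS/PGE2 minus control (triangles), and dashed lines mark 2-fold. Cyp51 lies furthest out on both sides, at -2.43 and 2.85, and no enzyme outside the 8 genes passes 2-fold.

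The rest of the pathway was read from a list of 15 further enzymes, of which 12 were measured and all 12 passed the filter. None of the 12 was at least 2-fold different in any of the 3 comparisons, and at 1.5-fold 1 was higher and 1 lower in NTS than in control kidney, where 7.62% and 11.9% of all genes compared were. For the 3 comparisons in turn, their median difference was -0.05, 0 and -0.03. Ebp, a sterol isomerase of the late pathway, read 10.63, 9.82 and 10.61 on the control, NTS and NTS/PGE2 arrays. Its low value on the NTS array alone has the shape seen in Cyp51 and Hmgcs1 at a smaller size. Hsd17b7, a sterol ketoreductase, read 8.92, 9.54 and 8.79, and so was high on the NTS array alone.

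Most neighbours of these genes in the pathway differed less. Mvk, Pmvk and Fdps, which stand between Hmgcs1 and Fdft1 in the pathway, differed by -0.03, 0.01 and -0.04 between NTS and control. Mvd, the mevalonate decarboxylase just ahead of Idi1, read 8.36, 8.08 and 8.52. Downstream of Cyp51, Tm7sf2 and Lbr, both sterol reductases, differed by -0.17 and 0.07, Msmo1, a demethylase, by 0.15, Nsdhl, which acts with it, by -0.41, Sc5d, a sterol desaturase, by -0.35 and Dhcr7, the last reductase of one branch, by -0.06. Within the 18 measured pathway enzymes the differences of NTS from control thus ran from -2.43 to 0.61.

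The genes that sense sterols and cut SREBP differed little. Of 12 listed, 10 were measured and 0 were at least 2-fold different in any comparison. For NTS against control 7 were lower, 3 exactly equal and 0 higher, with a median of -0.12. The largest difference was that of Erlin1, whose protein takes part in the breakdown of HMG-CoA reductase, with 10.05, 9.15 and 9.98 on the control, NTS and NTS/PGE2 arrays. Insig2, the second INSIG gene, read 9.89, 9.42 and 9.96. It was lowest on the NTS array, where Insig1 was not. Scap, the escort, had equal values on all 3 arrays, and Srebf1, the gene of the related factor SREBP1, read 8.34, 8.34 and 8.12; these 2 genes are named after their values were seen.

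Genes of sterol uptake and movement inside the cell included other SREBP2 targets. Of 12 listed, 8 were measured and 0 were at least 2-fold different in any comparison, with medians of -0.04, 0.01 and -0.10 in the 3 comparisons. Stard4, a sterol carrier and SREBP2 target, read 8.82, 7.90 and 8.55, lowest on the NTS array at -0.92 from control. Lipa, the lysosomal lipase that frees cholesterol from its esters, differed by -0.42 between NTS and control. Scarb1, the receptor for high-density lipoprotein, was higher on the NTS array by 0.35 and lower in NTS/PGE2 than in NTS kidney, at -0.64.

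The fatty acid arm, which SREBP1 drives in the main, differed more. All 17 listed genes were measured, and 6 were lower by 2-fold or more in NTS than in control kidney, 0 were higher and the median was -0.60. These 6 split by their NTS/PGE2 values. Acss2, which makes acetyl-CoA from acetate, read 10.25, 8.95 and 10.33, Elovl6, a fatty acid elongase, read 11.61, 10.27 and 11.32, and Scd1, a desaturase, read 13.48, 12.15 and 13.09. These 3 lay within 0.39 of control on the NTS/PGE2 array. Fasn, fatty acid synthase, read 11.88, 9.11 and 9.88, Acaca, acetyl-CoA carboxylase, read 9.68, 7.84 and 7.77, and the lipogenic gene Thrsp read 10.34, 6.35 and 7.23. These 3 stayed low on the NTS/PGE2 array, by -2.00, -1.92 and -3.10 from control. Of the 11 measured fat markers, 8 were at least 2-fold lower in that comparison, while Lpl differed by -0.02. The part of fat in the values of these 6 genes was not tested.

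**Figure D3:**
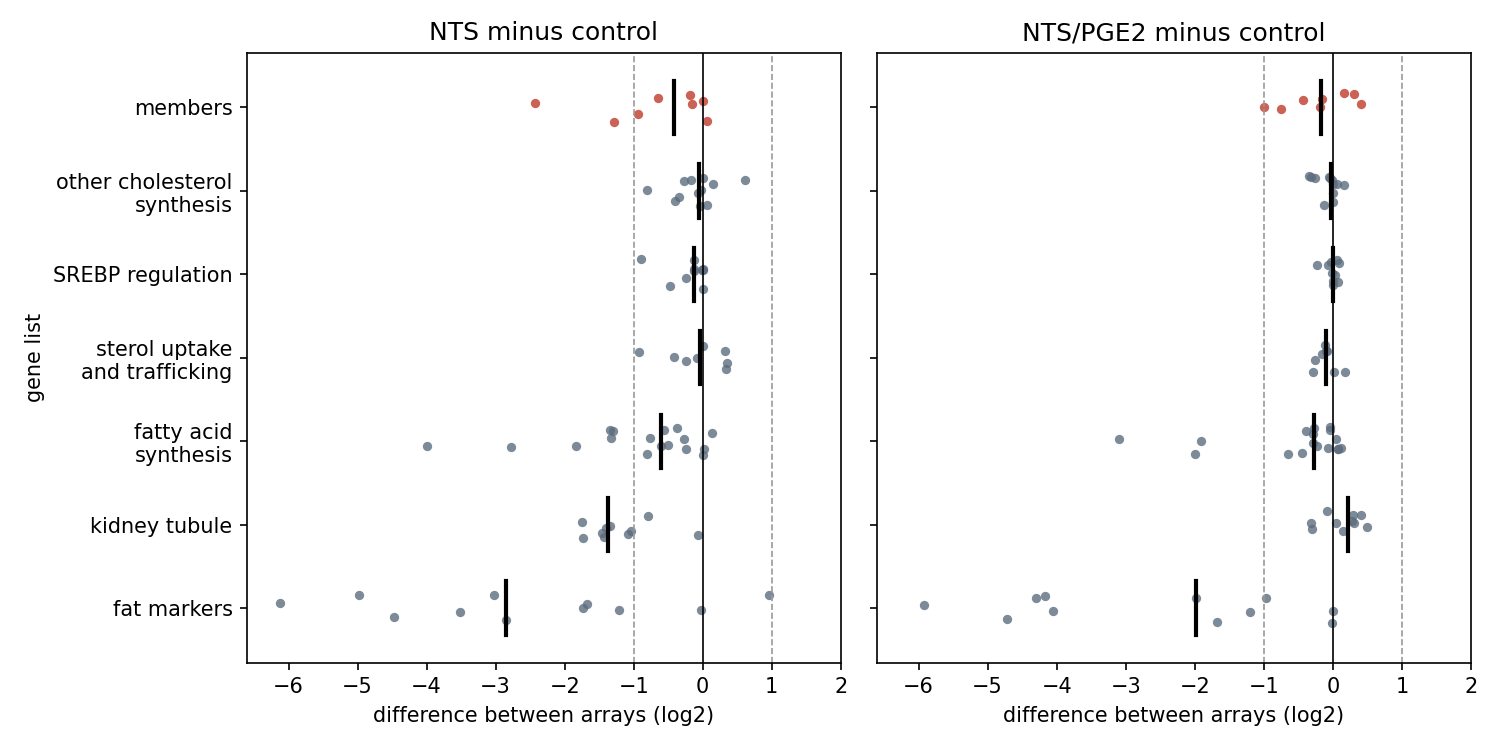
Log2 differences of NTS minus control (left) and NTS/PGE2 minus control (right) for every measured gene of each list (points, spread vertically for legibility), with the list's median as a black bar and 2-fold as dashed lines. The medians of the 8 genes are -0.41 and -0.17, those of the 12 other cholesterol enzymes -0.05 and -0.03, those of the tubule list -1.37 and 0.22, and those of the fat list -2.86 and -1.98.

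For likeness of pattern, each gene's 3 values were centred on their own mean and set against the mean centred values of the 8 genes, which were 0.30 in control, -0.40 in NTS and 0.10 in NTS/PGE2 kidney. Among 10905 candidates that passed the filter in all comparisons, the 5 genes at the smallest Euclidean distance over the 3 arrays were Sfxn1, Prkch, Atp6v1d, Dnajc13 and H2-Ke6. Sfxn1, the nearest, read 12.04, 11.34 and 11.83. Only Idi1 and Fdft1 among the 8 had the order of this mean, with control highest and NTS lowest. Cyp51, Hmgcs1 and Sqle were highest on the NTS/PGE2 array, and Insig1 and Srebf2 were lowest there. Lss was equal on the NTS and NTS/PGE2 arrays. For Cyp51 alone, a choice made after its values were seen, the 3 nearest genes were Hao2, Fam107a and Slc22a13. Hao2 read 11.92, 9.49 and 12.33. With only 3 arrays, many genes can lie close to any pattern.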

How the data were processed

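RNA from whole kidney was hybridised to 3 arrays, with 250 ng per array per the labels' protocols. The deposited log2 values cover 35556 probe sets. The authors used Affymetrix Expression Console with RMA, per the submitters' processing notes. Their versions and the build are not given in the sources. RMA corrects background, equalises the arrays' distributions and summarises probes by median polish, which can shrink small differences: 25.4% of the sets had equal values on all 3 arrays. No scanner values were used here.

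Of the probe sets, 21789 had 1 gene symbol, 1621 had several and 12146 had no name here. Gene identifiers were used to update symbols to a RefSeq table of GRCm38.p6, which matched 21698. Probe sets of one gene were averaged; those with several symbols or none were left out. A difference is the second group's log2 value minus the first's. A gene was counted at a log2 difference of at least 1 (2-fold) if its higher value reached that array's median. No test was run, with 1 array per group.

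The 8 genes, 12 other lists and the rules were chosen with earlier results of these data known. Named were the 8 genes, any further cholesterol enzyme and the nearest patterns. Of the other lipid lists, the 2-fold genes were named, or else up to 3 with the largest difference. Of each marker list up to 3 genes were to be named, which the tubule and fat lists exceed. Any other gene is said to be named after its values were seen. The alternatives were 1.5-fold, no filter, median centring, the brightest probe set, and shared probe sets counted. The code of the size rule was run on simulated data with planted differences above its threshold, which does not bear on the spread between animals. Python 3.11.15, pandas 2.3.3, numpy 2.4.6 and matplotlib 3.10.9 were used.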

Additional observations from a re-analysis of the deposited data

How the results depend on the processing

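With 1 array per group no replicate could be left out, and the spread between animals is unknown. No paired analysis was possible because each group had a single array. Counting at 1.5-fold in place of 2-fold gave 4 of the 8 genes in place of 2 for NTS against control, and 2 in place of 1 for NTS/PGE2 against control, all of them lower; over all genes compared, those lower went from 638 to 1406 and from 76 to 248. In the 6 other lipid lists, an alternative added after the data were seen, it gave 16 genes in place of 7 and 15 in place of 3 for the first and second comparison, while all genes, either way, went from 956 to 2304 and from 870 to 2212. Centring each array on its median over all genes left 0 of the 8 genes for NTS/PGE2 against control, because Insig1 lay at the threshold. The other 25 recounts stayed within 1.5 times the reported counts. All 9 recomputed medians and 72 recomputed differences of single genes, under centring, the brightest probe set and shared probe sets, moved by less than the SD between probe sets given above. Most of them could hardly move. Among the 8 genes only Idi1 and Fdft1 had more than 1 probe set, and only Srebf2 had a shared one. Centring moves all genes of a comparison by the same amount, 0.05 for NTS against control. These recounts therefore say little about how firm the values are. Probe sets could not be set against background.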

Other observations

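Sterol efflux and the liver X receptors, which answer to a surplus of sterols, were read from 15 listed genes, of which 14 were measured and 8 passed the filter for NTS against control. The receptor gene Nr1h3 was the only one at least 2-fold different. It read 9.40 in control, 8.17 in NTS and 9.27 in NTS/PGE2 kidney, low on the NTS array alone. The 4 genes that follow are named after their values were seen. Abca1, the cholesterol efflux pump and a target of these receptors, was high on the NTS array alone, at 9.65, 10.08 and 9.49. Mylip, another target, whose protein degrades the receptor for low-density lipoprotein, read 10.43, 9.92 and 10.46, so these targets did not share one direction. Apoe, the apolipoprotein, differed most from control on the NTS/PGE2 array, at -0.56. Cyp27a1, which makes an oxysterol, differed by -0.65 between NTS and control.

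Branches that use isoprenoids for other ends were read from 13 listed genes, of which 12 were measured. None was at least 2-fold different in any comparison, and the medians were -0.06, 0.02 and 0. Ggps1, which makes geranylgeranyl diphosphate, read 9.26, 8.56 and 9.14. Nus1, a subunit of the enzyme that starts dolichol synthesis, read 11.40, 10.87 and 11.63. Pggt1b, a subunit of a prenyltransferase, was high on the NTS array alone, at 8.68, 9.22 and 8.70.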
